A study of Homo sapiens with 9 samples.

Results

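The genes described here are the ZNF zinc finger genes that were well expressed in THP-1 cells, which are human leukaemia cells of the monocytic lineage. They were chosen by their mean level: the symbol of the row had to be ZNF with a number and at most 1 further letter, and the level had to average at least 10 CPM (raw counts scaled to a common library total) across 9 libraries. Of 492 such rows, 272 reached this line and are the members. The table held 30000 rows, of which 18437 had enough reads to be tested, and all members were among these. A further 183 ZNF rows below the line were also tested.

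Each of 3 groups had 3 RNA-seq libraries of THP-1 cells. The PKM2_KD_Ecto cells had received ectosomes labelled with a knockdown of PKM2, and the Scramble_Ecto cells had received ectosomes labelled with a scramble shRNA. The Ctrl cells had Ctrl as their shRNA label and no ectosomes listed, and were read as cells without ectosomes. Ectosomes are vesicles shed from the plasma membrane, and here they came from Huh7, a human hepatoma line. PKM2 is an isoform of the glycolytic enzyme pyruvate kinase, and the knockdown was read as one in the donor cells. The design asks what ectosomes do to the transcriptome of these cells and whether PKM2 in the donor cells matters for it. No source used here gives the ectosome dose or the incubation time, and all libraries are of 1 cell line. The labels do not tell whether replicates were grown as separate cultures, so every p-value reflects the spread among these libraries alone, and that spread may be technical.

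C2H2 zinc finger proteins are the largest class of human transcription factors, and each finger is a short zinc-binding fold that can read a few bases of DNA. Many also carry a KRAB box, which recruits the co-repressor TRIM28 (KAP1) and through it the methyltransferase SETDB1 and HP1 proteins, and many of these KRAB proteins silence transposable elements. Their genes arose by repeated local duplication and sit in clusters, above all on chromosome 19. Members without a KRAB box include promoter-binding factors, chromatin complex subunits and proteins that act on RNA or ribosomes.

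Library totals ran from 17744587 to 23864381 counts. Levels below are CPM after TMM scaling, and fold changes and adjusted p-values are from edgeR's quasi-likelihood test over all rows tested, with an adjusted p under 0.05 as the threshold. Control replicate 3 stood apart from the other control libraries: its counts differed from theirs by a chi-square of 49.2 and 45.4 per degree of freedom, against 2.6 to 7.23 for every other replicate pair. Of the 272 members, 205 were higher in this library than in the mean of the other controls, with a median log2 difference of 0.22, against 0.05 over all 9869 rows of at least 10 CPM. For members with a KRAB box the median was 0.28, and 139 of 167 were higher. All 10 THP-1 markers had reads in each group, and their summed raw CPM was 3060 to 3360 in PKM2_KD_Ecto, 1270 to 1380 in Scramble_Ecto and 1290 to 1790 in Ctrl libraries. ITGB2 led the first range, at 1840 to 2010 CPM, against 333 to 893 in Ctrl libraries. The markers did not move together. ITGAM, CD14, SPI1 and CSF1R were also higher in PKM2_KD_Ecto than in Ctrl libraries, while LYZ, CEBPA, FCGR1A and MPO were lower and CD33 overlapped. Of 12 hepatocyte markers, 6 had a row, with summed raw CPM of 42.5 to 49.1, 5.45 to 6.44 and 3.44 to 8.87 in the same order of groups. Most of the first range was SERPINA1 at 36.1 to 42.5 CPM, while ALB stayed at 0.337 to 0.538 CPM in PKM2_KD_Ecto, 0.0838 to 0.131 in Scramble_Ecto and 0.0564 to 0.189 in Ctrl libraries, and TTR was at 0 in PKM2_KD_Ecto and Ctrl libraries. The part of these differences in the results below was not tested. PKM itself had 2280 to 2520 raw CPM in PKM2_KD_Ecto, 3130 to 3240 in Scramble_Ecto and 437 to 827 in Ctrl libraries, which does not check the label, as the knockdown was read as one in the donor cells.

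Most members were KRAB genes. A KRAB box was found in the translated coding sequence of 167 members, with a median of 12 C2H2 fingers. A further 84 had at least 3 fingers and no KRAB box, with a median of 8 fingers, and 17 had at most 2 fingers and no KRAB box. The remaining 4 were the pseudogenes ZNF252P, ZNF271P and ZNF767P and the gene ZNF503, which the annotation lists under 2 identifiers. Chromosome 19 held 112 members, which is 41.2% of them, and 94 of the 167 with a KRAB box.

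The members were expressed at modest levels for their length. Their median was 4.23 CPM per kilobase of exon, against 9.14 for the protein-coding rows that reached the same line and 5.09 for all protein-coding rows tested. The top of this order was ZNF622, a factor in maturation of the large ribosomal subunit, at 63.2 CPM per kilobase, followed by ZNF217, a transcriptional co-repressor, at 41.4. Of the members, 236 reached 10 raw CPM in each group by itself, 28 in 2 groups and 8 in 1 group. For members that fell short in a group, a difference between groups was favoured by their choice. Just above the line were ZNF658 (mean 10.02 CPM), ZNF616 (10.26) and ZNF429 (10.28), and just below it ZNF280C (9.95), ZNF600 (9.939) and ZNF70 (9.815). The median coefficient of variation of the members was 6.7% in PKM2_KD_Ecto, 4.96% in Scramble_Ecto and 12.5% in Ctrl libraries.

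With scramble ectosomes the members moved in both directions in like numbers. Against control, 79 were higher and 76 were lower, which is 29% and 27.9% of them, beside 34.6% and 33.2% of all rows tested. The median log2 fold change of the members was 0.01 and that of all rows was -0.01. Of all rows with at least 10 CPM, 41.1% were higher and 33.5% lower, with a median of 0.07. Among the 236 members with 10 CPM in each group, 67 were higher and 58 lower. Without control replicate 3, the count of higher members was 113 and that of lower members stayed at 76, beside 46.2% and 35.7% of all rows of at least 10 CPM. With library totals in place of TMM scaling the split was 62 higher and 110 lower, beside 32.4% and 43.8% of all rows of at least 10 CPM. The median of all rows then moved to -0.21 and that of the members to -0.19. For any of these genes, fewer cells that express it and less RNA per cell cannot be told apart.

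With PKM2-knockdown ectosomes, more members were below than above their level with scramble ectosomes. Of the 272, 63 were higher and 105 lower, which is 23.2% and 38.6%, beside 31.4% and 30.3% of all rows tested and 28.8% and 40.5% of all rows of at least 10 CPM. The median log2 fold change was -0.15 for members, 0.03 for all rows and -0.12 for rows of at least 10 CPM. Read against rows of like level, the members' share of lower calls was near the background. With library totals the split turned to 84 higher and 68 lower, beside 36.8% and 31% of all rows of at least 10 CPM. The medians were then 0.02 for members and 0.20 for all rows. The tested ZNF rows below the line counted 56 higher and 35 lower of 183, which is 30.6% and 19.1%, near the 34.3% and 18.5% of all tested rows below 10 CPM.

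Against control, PKM2-knockdown ectosomes left 48 members higher and 86 lower, which is 17.6% and 31.6%, beside 27% and 26.7% of all rows tested. Of all rows of at least 10 CPM, 28.7% were higher and 35.4% lower. The members' median log2 fold change was -0.13, against -0.01 over all rows and -0.07 over rows of at least 10 CPM. Without control replicate 3 the members counted 64 higher and 87 lower, and their median was -0.02. Of rows of at least 10 CPM, 33.2% were then higher and 38.5% lower, with a median of -0.04. Both comparisons with control use the same 3 control libraries.

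**Figure D1:**
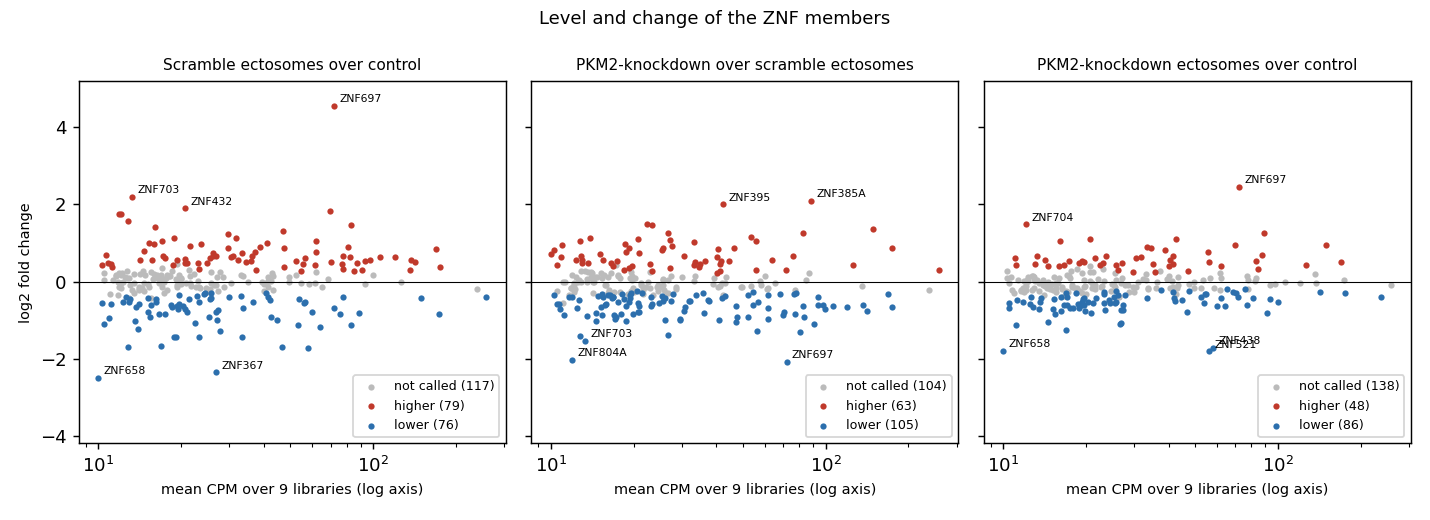
Log2 fold change against mean raw CPM (log axis) of the 272 ZNF members in the 3 comparisons, each point 1 gene, coloured by its call at an adjusted p of 0.05. Called members lie on both sides of 0 at all levels, and ZNF697 has the highest log2 fold change over control, 4.56 with scramble ectosomes and 2.46 with PKM2-knockdown ectosomes.

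The member with the widest change was ZNF697, a protein with 11 C2H2 fingers and no KRAB box (chr1:119619422-119647773, minus strand, GRCh38). It had 45.9, 41.8 and 38.6 CPM in PKM2_KD_Ecto, 185, 175 and 180 CPM in Scramble_Ecto and 8.58, 9.69 and 4.47 CPM in Ctrl libraries. The 3 groups did not overlap, and control was the lowest. It was 23.5-fold higher with scramble ectosomes than in control (log2 4.56, SE 0.22, adjusted p = 2.67e-08). Its level with PKM2-knockdown ectosomes was 4.27-fold lower than with scramble ectosomes (adjusted p = 4.71e-06) and 5.51-fold higher than in control (adjusted p = 4e-06). Without control replicate 3 its log2 fold change over control was 4.29 with scramble ectosomes. As control cells had under 10 CPM, ZNF697 reached the line through the ectosome groups.

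Members also differed in the DNA before their start sites. RefSeq promoter windows (GRCh38.p14, 250 bases before the start) were matched for 232 of the 272 members and searched on both strands for 5 short motifs. The gene positions in the text are from GENCODE, so the ZNF697 window, set by the RefSeq start, does not adjoin the position given above. The following windows are printed 5′ to 3′ on the gene's strand because they belong to the highest riser, to a strong faller, and to the gene of a promoter-binding factor whose own motif core is among those searched. Capitals mark matches to the GC box GGGCGG, the CCAAT box, the ETS motif CCGGAAG and ACTACAA, the core of the ZNF143 motif, or to their reverse complements. The TATA box TATAAA was also searched.
ZNF697 chr1:119648267-119648516 minus strand: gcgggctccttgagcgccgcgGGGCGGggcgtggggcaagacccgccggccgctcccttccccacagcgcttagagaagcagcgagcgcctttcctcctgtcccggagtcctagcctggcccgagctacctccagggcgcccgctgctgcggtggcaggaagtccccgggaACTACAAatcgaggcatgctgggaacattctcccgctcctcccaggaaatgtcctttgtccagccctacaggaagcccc
ZNF367 chr9:96418371-96418620 minus strand: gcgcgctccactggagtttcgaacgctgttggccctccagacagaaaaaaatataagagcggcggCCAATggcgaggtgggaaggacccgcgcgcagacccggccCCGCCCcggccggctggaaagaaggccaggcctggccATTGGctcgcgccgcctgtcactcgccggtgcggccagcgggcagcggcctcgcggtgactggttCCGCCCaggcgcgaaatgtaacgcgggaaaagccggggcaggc
ZNF143 chr11:9460762-9461011 plus strand: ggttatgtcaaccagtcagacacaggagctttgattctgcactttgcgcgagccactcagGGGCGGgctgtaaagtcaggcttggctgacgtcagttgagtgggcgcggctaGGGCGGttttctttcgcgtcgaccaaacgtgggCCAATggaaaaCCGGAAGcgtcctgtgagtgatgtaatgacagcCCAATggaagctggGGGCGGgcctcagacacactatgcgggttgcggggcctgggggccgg

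The ZNF697 window held 20 CpG sites, 1 GC box and 1 ACTACAA. The ZNF367 window held 30 CpG sites, 2 CCAAT boxes and 2 GC boxes, and the ZNF143 window held 17 CpG sites and 6 matches, an ETS motif among them. Over the 232 member windows the median was 18 CpG sites, against 11 over all 27305 promoters in the table. An ETS motif was in 32.8% of member windows and 8.82% of all promoters, ACTACAA in 6.47% and 2.64%, a CCAAT box in 45.3% and 33%, a GC box in 60.3% and 42.3%, and a TATA box in 4.31% and 11.1%. KRAB members held the ETS motif in 37% and the GC box in 54.8% of 146 windows, while the other members held them in 25.6% and 69.8% of 86. Of the members that were higher with scramble ectosomes than in control, 33.8% of 68 windows held an ETS motif and 32.4% a CCAAT box. Of those that were lower, 25% of 64 windows held an ETS motif and 50% a CCAAT box. These are counts of letters, and the differences between the member groups were not tested. The 27305 promoters were not limited to expressed genes, so these shares cannot set the members apart from other expressed genes.

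The other large rises with scramble ectosomes included members with and without a KRAB box. ZNF703, a transcriptional repressor of the NET family, had 8.64, 9 and 9.8 CPM in PKM2_KD_Ecto, 27.3, 25.5 and 27.1 CPM in Scramble_Ecto and 7.99, 5.6 and 3.81 CPM in Ctrl libraries. It was 4.59-fold higher with scramble ectosomes than in control (adjusted p = 3.6e-06). The scramble libraries lay far above all others, and ZNF703 reached the line through them alone, so a difference of this kind was built into its choice. The KRAB gene ZNF432 rose 3.73-fold with scramble ectosomes over control (adjusted p = 5.03e-07), with means of 20 ± 2.22 CPM in PKM2_KD_Ecto, 34.5 ± 1.58 CPM in Scramble_Ecto and 9.21 ± 1.63 CPM in Ctrl libraries (SD, n = 3 each). Its control level was under 10 raw CPM, so a rise over control was favoured by its choice. The KRAB gene ZNF267 had 71.8, 62.2 and 58.5 CPM, 120, 117 and 117 CPM, and 29.2, 35.1 and 35.2 CPM in PKM2_KD_Ecto, Scramble_Ecto and Ctrl libraries, which is 3.54-fold higher with scramble ectosomes than in control (adjusted p = 7.56e-08). In both, the PKM2-knockdown group lay between scramble ectosomes and control, and all 3 differences passed the threshold.

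ZNF804A, known from psychiatric genetics, also reached the line through the scramble group alone, so it had to be higher there. It had 6.18, 5.58 and 5.92 CPM in PKM2_KD_Ecto, 22.5, 25.9 and 24.1 CPM in Scramble_Ecto and 7.83, 5.21 and 8.39 CPM in Ctrl libraries. It was 3.4-fold higher with scramble ectosomes than in control (adjusted p = 3.61e-06) and 4.09-fold lower with PKM2-knockdown than with scramble ectosomes (adjusted p = 2.38e-06). PKM2-knockdown ectosomes and control overlapped (log2 -0.27, adjusted p = 0.209). The KRAB gene ZNF460, which likewise passed only through the scramble group, had means of 8.63, 23 and 7.79 CPM and a 2.95-fold rise over control with scramble ectosomes (adjusted p = 8.71e-06). ZNF469, mutated in brittle cornea syndrome, averaged 71.2 ± 4.09, 136 ± 8.39 and 49.3 ± 12 CPM in the 3 groups (SD, n = 3 each) and was 2.76-fold higher with scramble ectosomes than in control (adjusted p = 8.31e-06).

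ZNF704 was higher with both kinds of ectosomes than in control. As control cells had under 10 CPM, it reached the line through the ectosome groups, so a rise over control was favoured by its choice. Its values were 15.7, 15.4 and 12.4 CPM in PKM2_KD_Ecto, 17.8, 19 and 15.5 CPM in Scramble_Ecto and 4.47, 4.86 and 6.29 CPM in Ctrl libraries. The increase over control was 2.79-fold with PKM2-knockdown ectosomes (adjusted p = 2.43e-05) and 3.35-fold with scramble ectosomes (adjusted p = 3.16e-06). The difference between the ectosome groups did not pass the threshold (log2 -0.27, SE 0.15, adjusted p = 0.139), but did so without control replicate 3 (adjusted p = 0.0344).

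**Figure D2:**
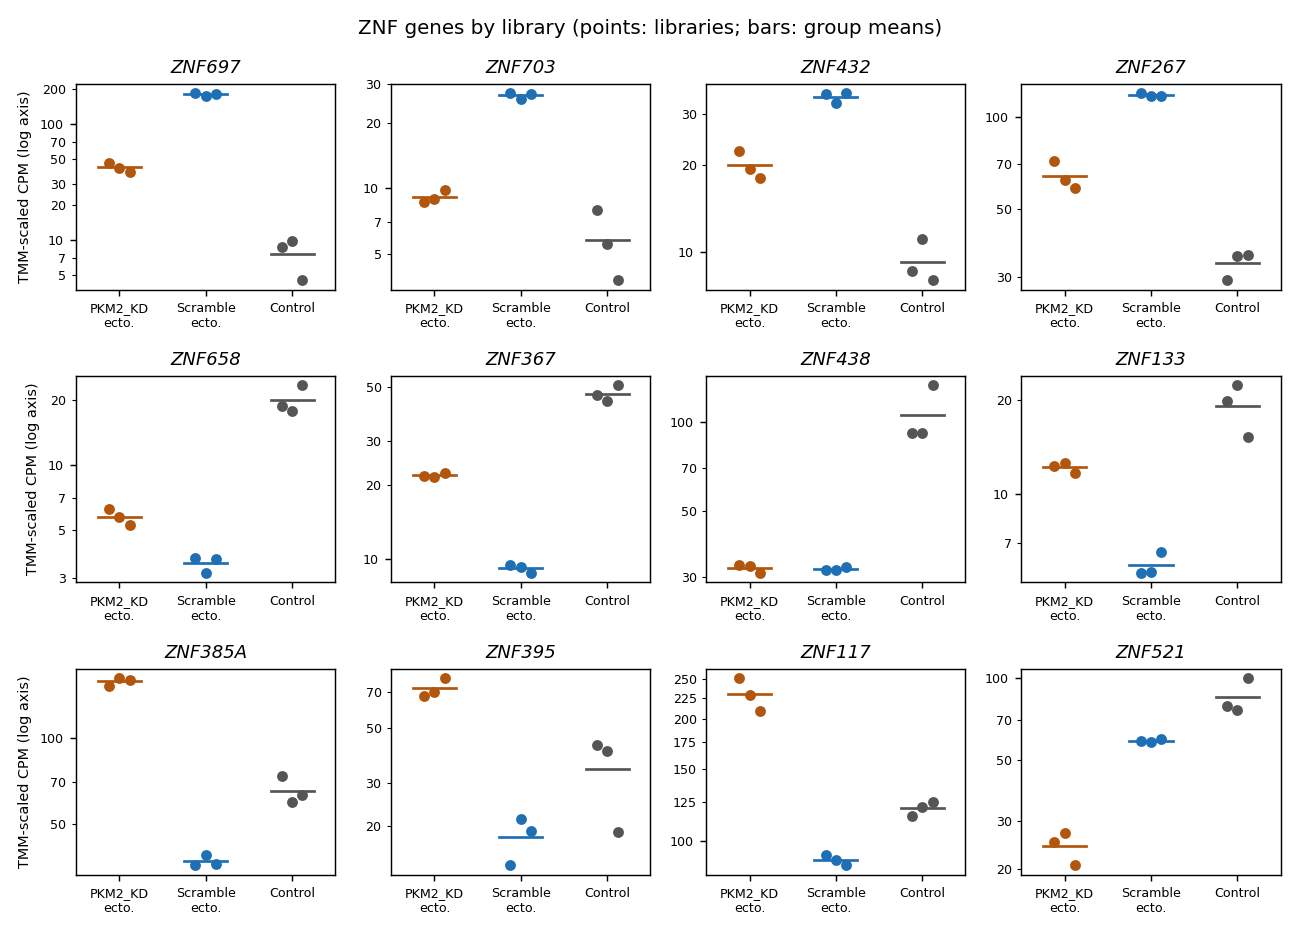
TMM-scaled CPM (log axis) of 12 ZNF members in each library, with PKM2_KD_Ecto, Scramble_Ecto and Ctrl from left to right, points for libraries and bars for group means. ZNF697, ZNF703, ZNF432 and ZNF267 peak with scramble ectosomes, ZNF658, ZNF367, ZNF438 and ZNF133 are highest in control, and ZNF385A, ZNF395 and ZNF117 are highest with PKM2-knockdown ectosomes.

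The largest falls with scramble ectosomes were those of ZNF658 and ZNF367. ZNF658, a KRAB protein with 19 fingers that takes part in zinc-responsive repression (chr9:66856426-66932141), had 6.23, 5.72 and 5.24 CPM in PKM2_KD_Ecto, 3.7, 3.16 and 3.64 CPM in Scramble_Ecto and 18.7, 17.7 and 23.3 CPM in Ctrl libraries. It was 5.66-fold lower with scramble ectosomes than in control (adjusted p = 1.28e-07). It reached the line through the control group alone, and 56.4% of its 50-base stretches also occur in transcripts of ZNF658B, so its reads may be shared with that pseudogene. ZNF367, with 2 fingers (chr9:96385941-96418329), had 21.7, 21.5 and 22.3 CPM in PKM2_KD_Ecto, 9.43, 9.27 and 8.77 CPM in Scramble_Ecto and 46, 43.5 and 50.5 CPM in Ctrl libraries. The 3 groups were clear of each other, and the fall with scramble ectosomes was 5.09-fold (adjusted p = 8.65e-09). As the scramble group had under 10 raw CPM, ZNF367 reached the line through the other groups, so a fall there was favoured by its choice.

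ZNF438 was low with both kinds of ectosomes. It had 32.9, 32.5 and 30.9 CPM in PKM2_KD_Ecto, 31.5, 31.5 and 32.3 CPM in Scramble_Ecto and 92, 91.8 and 133 CPM in Ctrl libraries. It lay 3.29-fold below control with PKM2-knockdown (adjusted p = 2.52e-06) and 3.33-fold below it with scramble ectosomes (adjusted p = 9.43e-07), and the ectosome groups differed by a log2 of 0.02 (SE 0.13, adjusted p = 0.924). The KRAB gene ZNF850, with 29 fingers, averaged 11.9 ± 1.2, 8.98 ± 0.682 and 28.7 ± 4.24 CPM in PKM2_KD_Ecto, Scramble_Ecto and Ctrl libraries (SD, n = 3 each). ZNF850 had under 10 raw CPM in the scramble group, so a fall there was favoured by its choice.

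In the other large falls, PKM2-knockdown ectosomes gave a level between those of scramble ectosomes and control. ZNF133 averaged 12.2, 5.92 and 19.2 CPM in PKM2_KD_Ecto, Scramble_Ecto and Ctrl libraries, and ZNF692, which takes part in the response to the AMP-kinase activator AICAR, averaged 41.6, 22.5 and 72.7 CPM. ZNF439 averaged 34.6, 16.9 and 46.4 CPM and ZNF500 17.2, 10.2 and 27.8 CPM in the same order. These 4 were 2.73-fold to 3.24-fold lower with scramble ectosomes than in control, and all were higher with PKM2-knockdown than with scramble ectosomes. ZNF133 and ZNF500 had under 10 raw CPM in the scramble group, so a low level there was favoured by their choice. The fall of ZNF439 below control with PKM2-knockdown ectosomes was 1.34-fold and lost its call when PKM2_KD_Ecto replicate 2 (adjusted p = 0.0703) or 3 (adjusted p = 0.0586) was left out. Of ZNF500, 17.9% of the exon bases are shared with C16orf71 on the opposite strand.

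The widest rise with PKM2-knockdown over scramble ectosomes was that of ZNF385A, a p53 cofactor that also binds mRNA (chr12:54369133-54391298). It had 152, 162 and 160 CPM in PKM2_KD_Ecto, 35.9, 39.1 and 36.3 CPM in Scramble_Ecto and 73.4, 59.8 and 63.3 CPM in Ctrl libraries. The groups did not overlap, and control lay in the middle. ZNF385A was 4.26-fold higher with PKM2-knockdown than with scramble ectosomes (log2 2.09, SE 0.09, adjusted p = 4.16e-08), 2.41-fold higher than control with PKM2-knockdown ectosomes (adjusted p = 1.09e-06), and 1.76-fold lower than control with scramble ectosomes (adjusted p = 1.19e-05).

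ZNF395, a transcription factor that is itself inducible by hypoxia, had a like order of group means. It had 67.2, 70 and 79.5 CPM in PKM2_KD_Ecto, 13.9, 21.3 and 19.1 CPM in Scramble_Ecto and 42.7, 40.2 and 18.9 CPM in Ctrl libraries. Control replicate 3 lay within the scramble range and the other controls well above it. The gene was 4-fold higher with PKM2-knockdown than with scramble ectosomes (adjusted p = 7.68e-05). Its exons share 34.9% of their bases with FBXO16 on the same strand, so reads of these genes may have been exchanged.

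ZNF117, with 10 fingers, was among the most abundant members. It had 252, 229 and 209 CPM in PKM2_KD_Ecto, 92.3, 89.9 and 87.1 CPM in Scramble_Ecto and 115, 121 and 125 CPM in Ctrl libraries, a 2.56-fold rise with PKM2-knockdown over scramble ectosomes (adjusted p = 4.3e-07). The KRAB gene ZNF514 averaged 31.4 ± 3.76, 11.1 ± 0.798 and 23.3 ± 3.24 CPM in the same order (SD, n = 3 each), a 2.82-fold rise (adjusted p = 3.99e-06).

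In ZNF83, ZNF789 and ZNF618 the level with PKM2-knockdown ectosomes was close to that of control. The means were 29, 10.5 and 28.7 CPM for ZNF83, 104, 43.8 and 96.7 CPM for ZNF789, and 64.6, 29 and 63.1 CPM for ZNF618, a binding partner of UHRF2, in PKM2_KD_Ecto, Scramble_Ecto and Ctrl libraries. All 3 rose 2.23-fold to 2.75-fold with PKM2-knockdown over scramble ectosomes. Their log2 differences between PKM2-knockdown ectosomes and control were 0.02 (SE 0.10), 0.10 (SE 0.08) and 0.03 (SE 0.10), with adjusted p of 0.897, 0.293 and 0.798 by the same test. ZNF83 had under 10 raw CPM with scramble ectosomes, so a low level there was favoured by its choice.

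Falls with PKM2-knockdown against scramble ectosomes were led by ZNF697, ZNF804A, ZNF703 and ZNF460, whose values are above. ZNF503, another NET family gene, had 13.8, 14.7 and 18 CPM in PKM2_KD_Ecto, 43.5, 38.8 and 40 CPM in Scramble_Ecto and 25.8, 22.5 and 29 CPM in Ctrl libraries. It was 2.63-fold lower with PKM2-knockdown than with scramble ectosomes (adjusted p = 5.06e-06). ZNF121 averaged 51.5 ± 3.22, 128 ± 2.68 and 68.9 ± 11.8 CPM in the same order (SD, n = 3 each), a 2.49-fold fall (adjusted p = 3.28e-06). In both, control lay between the ectosome groups.

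ZNF521, a factor of early haematopoietic progenitors with 27 fingers (chr18:25061926-25352190), was lowest with PKM2-knockdown ectosomes. It had 25.1, 27.1 and 20.7 CPM in PKM2_KD_Ecto, 58.9, 58.4 and 59.9 CPM in Scramble_Ecto and 79.3, 76.4 and 100 CPM in Ctrl libraries. The groups did not overlap. It was 3.51-fold lower than control with PKM2-knockdown ectosomes (adjusted p = 1.09e-06), the widest such fall among the members, 1.44-fold lower than control with scramble ectosomes (adjusted p = 0.00241), and 2.43-fold lower with PKM2-knockdown than with scramble ectosomes (adjusted p = 8.25e-06). ZNF131, with 5 fingers, had means of 56.2, 121 and 98.7 CPM in PKM2_KD_Ecto, Scramble_Ecto and Ctrl libraries and was 2.16-fold lower with PKM2-knockdown than with scramble ectosomes (adjusted p = 1.85e-05).

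Among members with known roles in transcription and genome architecture, 11 were measured, and 6 were higher and 4 lower with scramble ectosomes than in control, or 5 and 5 with library totals. Of all rows of at least 10 CPM, 41.1% were higher and 33.5% lower, or 32.4% and 43.8% with library totals. The list's median log2 fold change was 0.42, beside -0.01 over all rows tested and 0.07 over rows of at least 10 CPM. The paralogues ZNF143 and ZNF76, promoter-binding activators, went opposite ways. ZNF143 averaged 24.3, 31.7 and 21 CPM and ZNF76 80.8, 51.5 and 92.3 CPM in PKM2_KD_Ecto, Scramble_Ecto and Ctrl libraries. With scramble ectosomes ZNF143 was 1.51-fold higher than control (adjusted p = 0.000422) and ZNF76 1.79-fold lower (adjusted p = 2.32e-06). A direct test between these genes was not made. Another pair of paralogues, the GC-rich-element factors ZNF148 and ZNF281, were both higher with scramble ectosomes, by 1.33-fold (adjusted p = 0.00694) and 1.69-fold (adjusted p = 0.000106), and ZNF148 lost this call with library totals (adjusted p = 0.0996).

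ZNF217 was the most abundant member by CPM. It had 284, 273 and 245 CPM in PKM2_KD_Ecto, 218, 223 and 207 CPM in Scramble_Ecto and 278, 279 and 297 CPM in Ctrl libraries, and its fall below control with scramble ectosomes was 1.32-fold (adjusted p = 0.00103). ZNF335, a nuclear receptor coregulator, was higher than control with both kinds of ectosomes, 1.69-fold with PKM2-knockdown (adjusted p = 1.5e-05) and 1.36-fold with scramble ectosomes (adjusted p = 0.000355). ZNF24 rose 1.48-fold with scramble ectosomes over control and fell 1.52-fold with PKM2-knockdown against scramble ectosomes. ZNF384 averaged 26.8, 25.9 and 27.5 CPM in the 3 groups and passed no test.

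Of 6 members of chromatin complexes, 4 were higher and 1 lower with scramble ectosomes than in control, and 1 higher and 4 lower with PKM2-knockdown than with scramble ectosomes. Of all rows of at least 10 CPM, 41.1% were higher and 33.5% lower in the first comparison, and 28.8% higher and 40.5% lower in the second. The list's medians were 0.40 and -0.47, beside 0.07 and -0.12 over those rows. ZNF532, which with ZNF592 and ZNF687 forms a complex around the chromatin reader ZMYND8, had 24.6, 23.6 and 23.4 CPM in PKM2_KD_Ecto, 47.8, 48.8 and 44.2 CPM in Scramble_Ecto and 21.4, 20.5 and 18.4 CPM in Ctrl libraries. It was 2.33-fold higher with scramble ectosomes than in control (adjusted p = 5.18e-07), while ZNF687 was 1.22-fold higher (adjusted p = 0.0079) and ZNF592 had a log2 difference of 0.07 (adjusted p = 0.478). The ZNF687 call was lost with library totals (adjusted p = 0.365). ZNF644, a partner of the H3K9 methyltransferases G9a and GLP, was 1.45-fold higher (adjusted p = 0.000538). ZNF451, a SUMO ligase, was 1.43-fold higher (adjusted p = 0.000721).

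ZNF512B, which binds the NuRD deacetylase complex, fell. It had 59, 60.9 and 55.5 CPM in PKM2_KD_Ecto, 39.3, 39.2 and 40.8 CPM in Scramble_Ecto and 90.4, 81 and 99.6 CPM in Ctrl libraries, with no overlap. The fall below control was 1.54-fold with PKM2-knockdown (adjusted p = 0.000131) and 2.27-fold with scramble ectosomes (adjusted p = 6.33e-07).

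Of 11 members with roles in RNA, ribosomes or the spindle, 3 were higher and 3 lower with scramble ectosomes than in control, and 1 was higher and 6 lower with PKM2-knockdown than with scramble ectosomes. Those comparisons had 41.1% and 33.5%, and 28.8% and 40.5%, of all rows of at least 10 CPM higher and lower. Without control replicate 3 the counts were 6 and 3, and 1 and 8, beside 46.2% and 35.7%, and 34.2% and 47.7%, of those rows. With library totals the counts were 3 and 5, and 1 and 2, beside 32.4% and 43.8%, and 36.8% and 31%. The list's medians were 0.01 and -0.33, beside 0.07 and -0.12 over rows of at least 10 CPM. The ribosome factor ZNF622 had 86.3, 90.7 and 93.5 CPM in PKM2_KD_Ecto, 139, 142 and 142 CPM in Scramble_Ecto and 93.1, 85.5 and 94.1 CPM in Ctrl libraries. It was high in the scramble group alone, where it exceeded PKM2-knockdown ectosomes 1.56-fold (adjusted p = 1.94e-05) and control 1.55-fold (adjusted p = 1.47e-05). ZNF638, an RNA-binding partner of the HUSH silencing complex, averaged 101, 160 and 103 CPM, with a 1.59-fold fall with PKM2-knockdown against scramble ectosomes (adjusted p = 5.12e-05).

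ZNF598, the ubiquitin ligase that marks collided ribosomes, averaged 76.3 ± 6.61, 100 ± 1.03 and 105 ± 12 CPM in PKM2_KD_Ecto, Scramble_Ecto and Ctrl libraries (SD, n = 3 each). It was 1.31-fold lower with PKM2-knockdown than with scramble ectosomes (adjusted p = 0.0042), a call lost with library totals (adjusted p = 0.0542), and 1.37-fold lower than control (adjusted p = 0.00218). ZNF106 was higher than control with both, by 1.43-fold with PKM2-knockdown (adjusted p = 0.000135) and 1.79-fold with scramble ectosomes (adjusted p = 1.78e-06). ZNF207, a kinetochore protein that binds BUB3, averaged 204, 236 and 271 CPM and was 1.33-fold lower than control with PKM2-knockdown ectosomes (adjusted p = 0.0123), a call lost without PKM2_KD_Ecto replicate 2 (adjusted p = 0.0573).

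ZNF830, which acts in pre-mRNA splicing, averaged 15.9, 18.8 and 24.1 CPM in PKM2_KD_Ecto, Scramble_Ecto and Ctrl libraries, a 1.51-fold fall below control with PKM2-knockdown ectosomes (adjusted p = 0.0016). ZNF346, a double-stranded RNA binding protein, averaged 20.8, 23 and 28.9 CPM, a 1.39-fold fall in the same comparison (adjusted p = 0.00501). ZNF326, a subunit of the DBIRD complex that links transcription to splicing, averaged 46.4, 59.1 and 52.4 CPM and was 1.27-fold lower with PKM2-knockdown than with scramble ectosomes (adjusted p = 0.00393). The nucleolar protein gene ZNF330 averaged 34, 46.1 and 45.7 CPM and was 1.36-fold lower in that comparison (adjusted p = 0.0105). Both of these calls were lost with library totals (adjusted p = 0.0948 for ZNF326 and 0.063 for ZNF330). ZNF277 averaged 22.3, 23 and 18.8 CPM and passed no test, but without control replicate 3 it was higher than control with both kinds of ectosomes (adjusted p = 0.000849 with PKM2-knockdown and 0.000234 with scramble ectosomes).

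**Figure D3:**
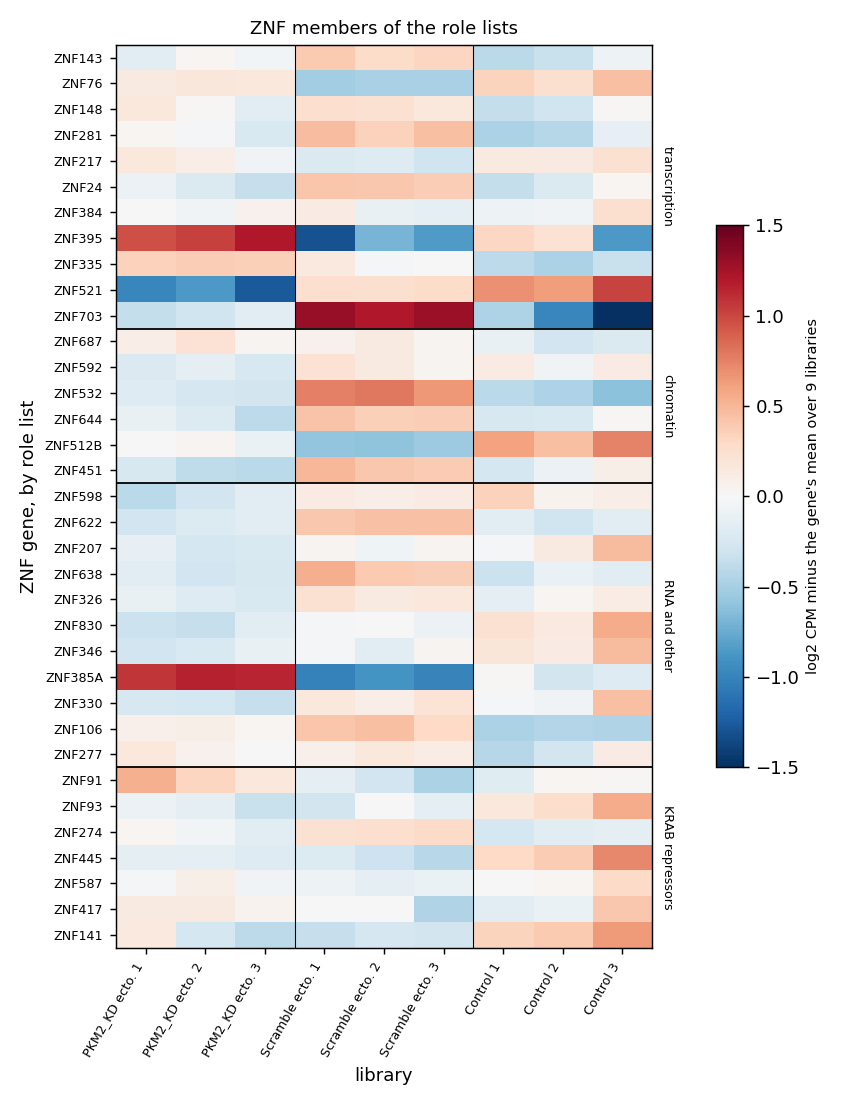
Log2 CPM of the ZNF members of the 4 role lists minus each gene's mean over the 9 libraries (colour, from -1.5 in blue to 1.5 in red, values beyond that shown at the end colour), with PKM2_KD_Ecto, Scramble_Ecto and Ctrl libraries from left to right. ZNF395 and ZNF385A are red with PKM2-knockdown ectosomes, ZNF703 and ZNF532 with scramble ectosomes, and ZNF521, ZNF512B and ZNF445 in control libraries.

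Of 7 KRAB repressors with known targets, 1 was higher and 3 lower with scramble ectosomes than in control, and with library totals 1 was higher and 6 lower. Of all rows of at least 10 CPM, 41.1% were higher and 33.5% lower, or 32.4% and 43.8% with library totals. ZNF445, which guards imprinted loci, had 51.9, 52 and 50.3 CPM in PKM2_KD_Ecto, 50, 46.4 and 43.2 CPM in Scramble_Ecto and 70.7, 74.9 and 94.3 CPM in Ctrl libraries. All ectosome libraries lay below all controls, by 1.55-fold with PKM2-knockdown (adjusted p = 0.000556) and 1.72-fold with scramble ectosomes (adjusted p = 8.02e-05). ZNF93, which represses L1 elements, was 1.43-fold lower with PKM2-knockdown ectosomes (adjusted p = 0.00414) and 1.38-fold lower with scramble ectosomes (adjusted p = 0.00508) than in control. ZNF141 averaged 23.6, 21.4 and 36.1 CPM in PKM2_KD_Ecto, Scramble_Ecto and Ctrl libraries and was 1.68-fold lower than control with scramble ectosomes (adjusted p = 0.000627).

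ZNF91, which represses SVA elements, had 56.4, 48.8 and 43.5 CPM in PKM2_KD_Ecto, 35.5, 31.9 and 28.1 CPM in Scramble_Ecto and 34.4, 39.9 and 39.6 CPM in Ctrl libraries. It was 1.56-fold higher with PKM2-knockdown than with scramble ectosomes (adjusted p = 0.000852). ZNF274, which brings SETDB1 to the 3′ ends of ZNF genes, was 1.37-fold higher with scramble ectosomes than in control (adjusted p = 0.000246) and 1.24-fold lower with PKM2-knockdown than with scramble ectosomes (adjusted p = 0.00337). That last call was lost with library totals (adjusted p = 0.125). ZNF587 and ZNF417, near-identical genes that act on HERV-K, passed none of the 3 tests, and 37.6% of the 50-base stretches of ZNF417 also occur in ZNF587.

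Split by class, KRAB members counted 37 higher and 48 lower of 167 with scramble ectosomes over control, and C2H2 members without a KRAB box 33 higher and 24 lower of 84. These are 22.2% and 28.7%, and 39.3% and 28.6%, beside 41.1% and 33.5% of all rows of at least 10 CPM. Without control replicate 3 the KRAB count turned to 61 higher and 47 lower, beside 46.2% and 35.7% of all rows of at least 10 CPM. With library totals the splits were 30 higher and 70 lower for KRAB members and 24 higher and 31 lower for the others with fingers. Of all rows of at least 10 CPM, 32.4% were then higher and 43.8% lower. For PKM2-knockdown against scramble ectosomes the counts were 40 higher and 56 lower for KRAB members and 21 higher and 38 lower for those with fingers but no KRAB box. The shares of all rows of at least 10 CPM were 28.8% and 40.5%. With library totals the KRAB split was 57 higher and 35 lower, and the other 22 higher and 26 lower. Of all rows of at least 10 CPM, 36.8% were then higher and 31% lower. For PKM2-knockdown ectosomes over control the counts were 24 higher and 48 lower, and 20 higher and 30 lower, beside 28.7% and 35.4% of rows of at least 10 CPM. Whether the classes differed was not tested.

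**Figure D4:**
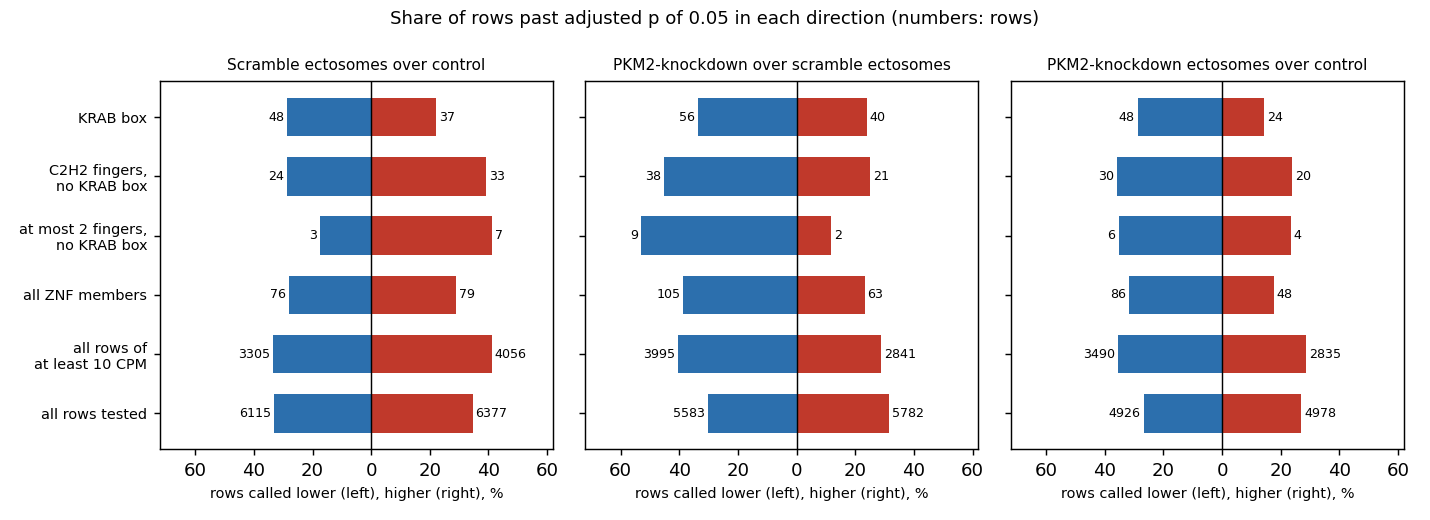
Percent of rows called higher (red, right) and lower (blue, left) in each of the 3 comparisons for the classes of ZNF members, for all 272 members, for all rows of at least 10 CPM and for all rows tested, with the number of rows called beside each bar. In each comparison both directions hold members of every class shown, and the members' share of higher calls is below that of all rows of at least 10 CPM.

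Summed over the class, the 167 KRAB members took 4330, 4180 and 3990 CPM in PKM2_KD_Ecto, 4530, 4430 and 4390 CPM in Scramble_Ecto and 4090, 4300 and 4990 CPM in Ctrl libraries. The scramble libraries lay above the PKM2-knockdown libraries, and the control libraries overlapped both groups. The 84 members with fingers and no KRAB box took 4160, 4150 and 3940, then 4690, 4600 and 4530, then 4020, 3940 and 4350 CPM in the same order, where the scramble libraries lay above all others. In raw CPM of library totals, the ectosome groups overlapped in both classes.

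**Figure D5:**
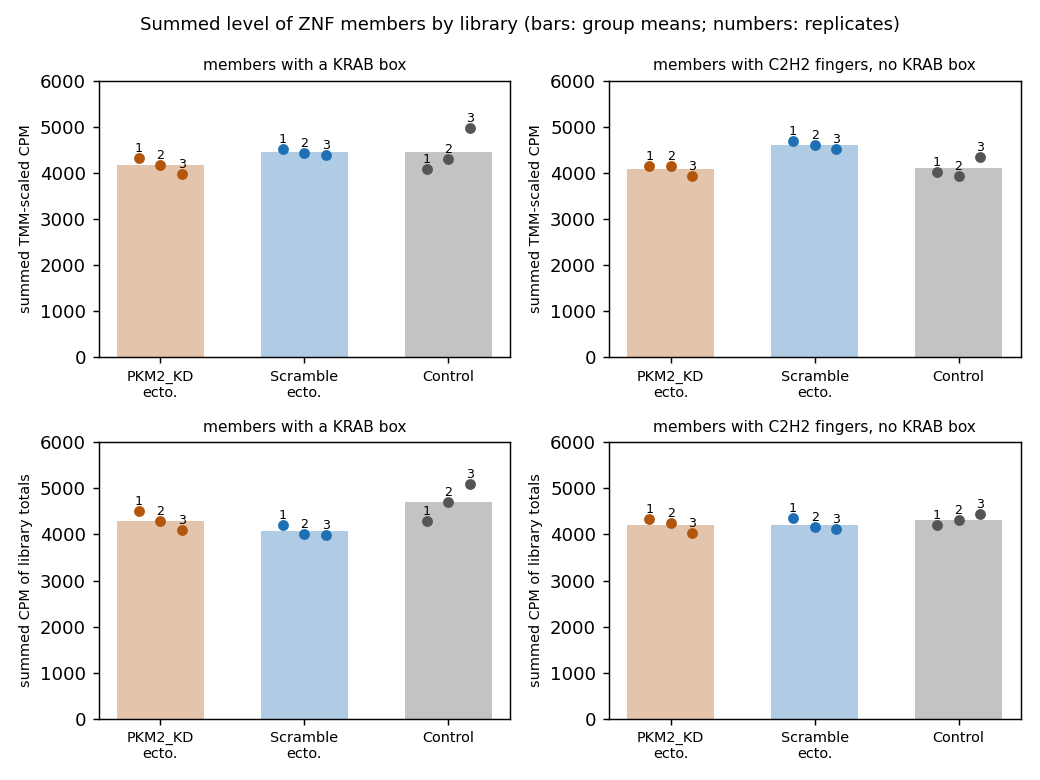
Summed CPM of the 167 ZNF members with a KRAB box (left) and the 84 with C2H2 fingers and no KRAB box (right) in each library, TMM-scaled (top) and of library totals (bottom), with bars for group means and points numbered by replicate. Control replicate 3 has the highest sum of KRAB members, 4990 TMM-scaled CPM, and the order of the groups differs between the scalings.

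Between neighbouring members the correlation of changes was low or near 0. Over 82 pairs of neighbours within 200 kilobases on chromosome 19, Pearson's r of their log2 fold changes was 0.21 for scramble ectosomes over control, 0.31 for PKM2-knockdown over scramble ectosomes and -0.04 for PKM2-knockdown ectosomes over control. Over 48 such pairs on other chromosomes it was 0.11, 0.06 and 0.03. These are correlations across gene pairs of the same 9 libraries, and some neighbours share sequence. The number of fingers had a Spearman correlation of -0.05, 0.07 and 0.03 with the log2 fold change over 268 members in the 3 comparisons.

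Among the partners through which KRAB proteins act, more genes of the co-repressor core were called lower than higher. Of 9 genes of the KRAB co-repressor core, 1 was higher and 5 lower with scramble ectosomes than in control, none was higher and 2 lower with PKM2-knockdown than with scramble ectosomes, and none was higher and 8 lower with PKM2-knockdown ectosomes than in control. Of all rows tested, 34.6% and 33.2%, 31.4% and 30.3%, and 27% and 26.7% were higher and lower in these comparisons. All 9 genes averaged at least 10 CPM. Of all rows at that level, 41.1% and 33.5%, 28.8% and 40.5%, and 28.7% and 35.4% were higher and lower. With library totals the counts were 1 and 7, 1 and 1, and none and 8. The shares of rows at that level were then 32.4% and 43.8%, 36.8% and 31%, and 27.2% and 38.2%. Without control replicate 3 the counts were 1 and 4, none and 6, and none and 8. Those shares were then 46.2% and 35.7%, 34.2% and 47.7%, and 33.2% and 38.5%. TRIM28, the KRAB-binding scaffold, averaged 214 ± 17.1, 245 ± 8.33 and 301 ± 46.1 CPM in PKM2_KD_Ecto, Scramble_Ecto and Ctrl libraries (SD, n = 3 each). It was 1.4-fold lower than control with PKM2-knockdown ectosomes (adjusted p = 0.00384) and 1.23-fold lower with scramble ectosomes (adjusted p = 0.0367), the second of which was lost under 5 of 15 alternatives, all of which left out 1 library (adjusted p up to 0.122 without Scramble_Ecto replicate 1). The HP1 genes CBX3 and CBX5 were 1.62-fold and 1.7-fold lower than control with PKM2-knockdown ectosomes (adjusted p = 0.00018 and 0.000182).

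ATF7IP2, a relative of the SETDB1 cofactor ATF7IP, averaged 11 ± 0.921, 32.3 ± 0.449 and 16 ± 2.62 CPM in the same order (SD, n = 3 each). It was 2.02-fold higher with scramble ectosomes than in control (adjusted p = 2.83e-05) and 2.93-fold lower with PKM2-knockdown than with scramble ectosomes (adjusted p = 2.26e-06). Of 11 genes of H3K9 and DNA methylation, 1 was higher and 6 lower with scramble ectosomes than in control. With library totals these counts were none and 8. With TMM scaling the shares were 34.6% and 33.2% over all rows tested, and 41.1% and 33.5% over rows of at least 10 CPM. With library totals, 32.4% of rows of at least 10 CPM were higher and 43.8% lower. EHMT2, which encodes G9a, averaged 150, 53.2 and 199 CPM and fell 3.73-fold with scramble ectosomes against control (adjusted p = 4.79e-08), and UHRF1 averaged 144, 81.9 and 241 CPM with a 2.94-fold fall (adjusted p = 1.65e-06). Of 11 NuRD genes, 4 were higher and 5 lower in that comparison, or 2 and 6 with library totals. Of the HUSH genes, 4 had a row and none passed the threshold there by edgeR, with 1 at an unadjusted p under 0.05. With library totals 3 of the 4 were lower.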

How the data were processed

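Gene expression was measured by RNA-seq in 9 libraries of THP-1 cells, grouped by the submitters' labels. The authors deposited raw counts per gene for each library. Reads were aligned with HISAT2 2.0.5 to GRCh38 (hg38) and counted with featureCounts 1.5.0-p3, per the submitters' processing notes. For the gene annotation and the strand setting no source used here has an entry. Overlapping genes on opposite strands may therefore share reads.

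All 18437 rows that passed edgeR's filter by group were fitted with edgeR 4.0.16 (R 4.3.3, limma 3.58.1) by the quasi-likelihood test with TMM scaling, group as the only term and 6 residual degrees of freedom. P-values were two-sided and adjusted by Benjamini and Hochberg over all rows tested, and standard errors were approximated from the log2 fold change and its F statistic. The fit was tested on simulated data. Depth ran from 17744587 to 23864381 counts, and the common biological coefficient of variation was 13.3%. Alternatives were DESeq2 1.42.0, other scalings, no filter, a replicate block, the compared groups alone, leaving out each library, other lines for membership and a stricter threshold.

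The members and the lists were chosen with earlier results of these data known. Named genes are the 8 largest rises and 8 largest falls among called members whose groups did not overlap, for scramble ectosomes over control and for PKM2-knockdown over scramble ectosomes, the 4 and 4 largest for PKM2-knockdown ectosomes over control, members at the line, members of the role lists and some of their partners. Positions, exon lengths, shared exon bases and shared 50-base stretches came from GENCODE 29, matched by symbol. C2H2 fingers were counted by pattern, and a KRAB box was called at 25% or more of the score of ZNF10 residues 10 to 55 against itself (Biopython 1.88), both in translated GENCODE 29 coding sequences, as a RefSeq protein table was not used here. By this, 55 members share over 10% of their exon bases or 50-base stretches with another gene and are uncertain. The named genes among them are ZNF384, ZNF395, ZNF417, ZNF460, ZNF500, ZNF587, ZNF598, ZNF658, ZNF687 and ZNF804A.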

Additional observations from a re-analysis of the deposited data

Results flagged for a closer look

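Of 58 named members, 8 lay on opposite sides of control in the 2 ectosome groups, with both comparisons with control past the threshold of edgeR's quasi-likelihood test. Over all 272 members this held for 21, which is 7.72%, near the 8.14% of all rows of at least 10 CPM and beside 5.7% of all rows tested. The comparisons with control share the same control libraries, and the choice of these genes fixed that the ectosome groups differ.

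With PKM2-knockdown over scramble ectosomes, ZNF385A had a log2 fold change of 2.09 (1.27 over control with PKM2-knockdown and -0.82 with scramble ectosomes). ZNF395 had 2.0 (1.09 and -0.91 over control), with control replicate 3 inside the range of the scramble libraries. ZNF514 had 1.5 (0.43 and -1.07), where the rise over control was lost without control replicate 2 (adjusted p = 0.0517) or PKM2_KD_Ecto replicate 1 (adjusted p = 0.0672). ZNF117 had 1.36 (0.94 and -0.42).

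In the other direction, ZNF503 had a log2 fold change of -1.39 (-0.73 over control with PKM2-knockdown and 0.66 with scramble ectosomes), and ZNF121 had -1.32 (-0.42 and 0.90). ZNF131 had -1.11 (-0.81 and 0.30), and its rise over control was lost under 11 of 15 alternatives. ZNF451 had -0.77 (-0.26 and 0.51), and its fall below control was lost under 8 of 15.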

How the results depend on the processing

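Most counts of called members stayed within 1.5 times of those reported. With the line raised to 20 CPM, 154 members were left: 45 were lower with scramble ectosomes than in control, 40 were higher and 64 lower with PKM2-knockdown than with scramble ectosomes, and 51 were lower with PKM2-knockdown ectosomes than in control, where fewer members were counted. Library totals gave 68 members lower with PKM2-knockdown than with scramble ectosomes, and an adjusted p under 0.01 gave 54 lower with PKM2-knockdown ectosomes than in control. Leaving out each library gave 74 to 113 higher and 67 to 80 lower for scramble ectosomes over control, 54 to 73 and 85 to 129 for PKM2-knockdown over scramble ectosomes, and 36 to 64 and 62 to 87 for PKM2-knockdown ectosomes over control. DESeq2's Wald test gave 80 and 76, 62 and 107, and 46 and 87. With the replicate number as a block the counts were 80 and 74, 61 and 98, and 46 and 76. After each gene's group mean was subtracted, the log CPM of same-numbered libraries had correlations of -0.094 to 0.0669. By these deviations, 2 of 9 libraries correlated best with their own number among libraries of the other groups. This does not settle whether same-numbered samples were handled together. Over the named members and partner genes, 3927 values kept their side of the threshold, 161 lost and 97 gained a call, and none changed sign while called. The cause was not tested.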

Other observations

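Among other zinc finger families at the same line, the ZBTB, ZSCAN and ZFP genes had members called in both directions. Of 31 ZBTB genes, whose products join fingers to a BTB domain, 12 were higher and 8 lower with scramble ectosomes than in control, and 7 higher and 15 lower with PKM2-knockdown than with scramble ectosomes. Of 10 ZFP genes, 2 were higher and 6 lower in the first of these comparisons and 4 higher and 3 lower in the second. Of 5 ZSCAN genes, 2 were higher and 1 lower in each. Of all rows of at least 10 CPM, 41.1% were higher and 33.5% lower in the first comparison, and 28.8% and 40.5% in the second. Of 5 ZKSCAN genes, which carry a SCAN domain and often a KRAB box, 2 were higher and none lower with scramble ectosomes than in control, and none was higher and 2 lower with PKM2-knockdown than with scramble ectosomes.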
